A study of Homo sapiens with 6 samples.

Results

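The genes described here carry the interleukin-6 signal and its best-known kinase outputs: the receptor chains IL6R and IL6ST (gp130), the kinases JAK1 and JAK2, the transcription factor STAT3, the feedback inhibitors SOCS1 and SOCS3, and the serine/threonine kinases PIM1, PIM2 and PIM3. They were chosen by gene symbol, as 10 of the 58735 genes in the expression table, and 9 of the 10 were expressed highly enough to be among the 13585 genes tested. PIM1 and IL6R were higher after PRMT1 knockdown (PRMT1 KD), at 178% and 154% of the control level. The other 7 genes tested did not pass the test, and SOCS1 was too low to be tested.

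IL-6 binds IL6R, and the pair engages gp130, the chain that IL-6 family receptors share. JAK kinases bound to gp130 then phosphorylate STAT3, which enters the nucleus and activates genes that include SOCS3 and PIM1. SOCS proteins close the loop by holding back the receptor and the JAKs. In multiple myeloma, a cancer of plasma cells, IL-6 made in the bone marrow is a well-known growth and survival factor, and PIM kinases, above all PIM2, support survival and protein synthesis in the tumour cells.

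MM.1S cells, an established human myeloma line, were the only cells used, grown without other marrow cells. RNA was sequenced from 3 control libraries (genotype control, transfected with the negative control siRNA, si-NC) and 3 PRMT1 KD libraries (transfected with siRNA against PRMT1, a type I arginine methyltransferase). The study lists 3 siRNAs against PRMT1, and which of them the sequenced cells received is not given in the sources used here. Effects of the siRNA on other genes were not tested. Per the study's methods, siRNA was used at 100 nM by transient transfection, the cells were collected at 72 h, and the medium was RPMI-1640 with serum, with no cytokine named. The design text gives the purpose as finding genes downstream of PRMT1, and no other genotype or treatment separates the groups. The labels do not say whether libraries of a group came from separate cultures, and the study's methods describe its biological replicates as dependent, so p-values measure the spread between these libraries, which may be technical.

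Expression is given as FPKM, which divides the fragments on a gene by gene length and by library size, so levels can be set side by side between genes. Reads on genes, worked back from FPKM and gene length, ranged from 14439217 to 16465026 per library. PRMT1 (chr19:49675786-49689029, GRCh38, plus strand) was at 61.7, 62.8 and 58.9 FPKM in the control libraries and at 13.3, 14.0 and 12.5 FPKM in the PRMT1 KD libraries, 21.7% of control (limma adjusted p = 2.77e-05). All 8 plasma cell markers listed were expressed, with a summed level of 858 to 874 FPKM in control and 833 to 879 FPKM in PRMT1 KD. Of these, SLAMF7 was lower in PRMT1 KD (log2 fold change -0.65, limma adjusted p = 0.00515). Of 12 markers of other marrow cells, 4 (MS4A1, S100A8, HBB and COL1A2) were listed at 0 in every library, and 2 reached a mean of 1 FPKM. These were PAX5 and CD3E, and CD3E, at 32.1 to 39.0 FPKM, made most of a summed level of 33.5 to 37.7 FPKM in control and 38.0 to 40.1 FPKM in PRMT1 KD. Neither passed the test, while the T cell markers CD3D and CD2 stayed at or under 0.845 FPKM. The part of CD3E in the results below was not tested.

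The upstream sequences of PIM1 and IL6R are shown because these are the genes that rose. They are the bases just before the transcription start that RefSeq gives on GRCh38.p14, as far as they lie outside the gene in the deposited table, read 5′ to 3′ on the gene's strand. For PIM1 these are 250 bases, chr6:37169902-37170151 (plus strand). For IL6R they are the first 100 bases of the 250, chr1:154405093-154405192 (plus strand). Capitals mark GC boxes, the 6 letters GGGCGG or their reverse complement.
PIM1: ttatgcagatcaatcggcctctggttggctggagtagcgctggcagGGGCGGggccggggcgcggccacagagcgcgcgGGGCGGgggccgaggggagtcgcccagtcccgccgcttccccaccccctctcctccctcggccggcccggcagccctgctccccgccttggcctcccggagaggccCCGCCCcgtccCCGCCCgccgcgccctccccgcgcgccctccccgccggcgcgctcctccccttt
IL6R: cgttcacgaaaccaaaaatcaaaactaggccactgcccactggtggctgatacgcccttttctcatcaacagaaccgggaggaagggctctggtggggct
The PIM1 sequence held 4 GC boxes, and the IL6R sequence held 0. Over 250 bases the PIM1 window was 79.6% G or C and the IL6R window 65.2%, against a median of 58% over all 35116 windows of this length. RefSeq gave 16 such windows for the 10 genes. GGGCGG was found on either strand in 8 of the 16 and in 42.6% of all windows. TTCNNNGAA, the letters of a STAT site, was found in 0 of the 16 and in 6.57% of all windows, which says only that these letters are not in these windows.

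**Figure D1:**
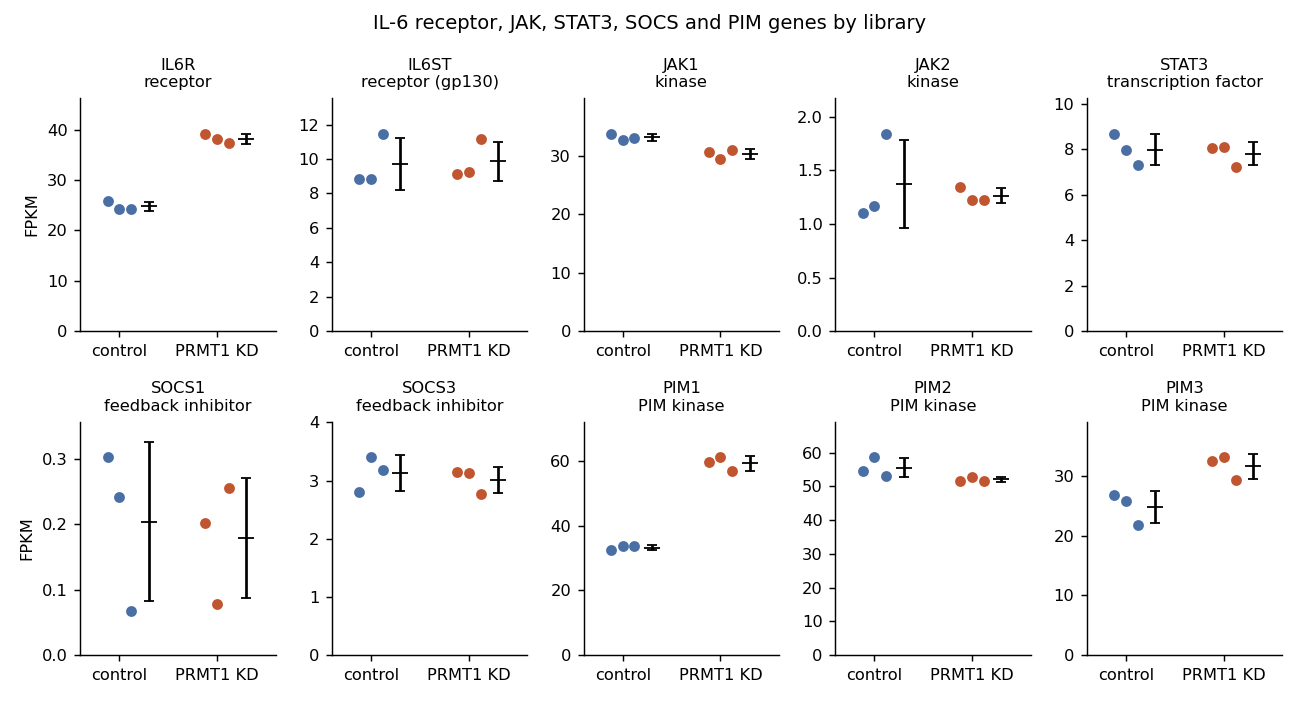
FPKM of each of the 10 genes in each library (points, libraries 1 to 3 from left to right in each group), with the mean and SD of the 3 libraries beside them. Each panel has its own axis, which starts at 0. For PIM1, IL6R and PIM3 every PRMT1 KD library lies above every control library, for JAK1 and PIM2 every PRMT1 KD library lies below, and for the other 5 genes the groups overlap.

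In the control cells the order of the levels per length was PIM2 (55.5 ± 2.82 FPKM, SD, n = 3), PIM1 (33.3 ± 0.699), JAK1 (33.1 ± 0.594), PIM3 (24.8 ± 2.64), IL6R (24.8 ± 0.905), IL6ST (9.72 ± 1.53), STAT3 (7.98 ± 0.695), SOCS3 (3.13 ± 0.302), JAK2 (1.37 ± 0.410) and SOCS1, at 0.0674 to 0.303 FPKM. The libraries of PIM1 and JAK1 overlapped, as did those of PIM3 and IL6R, and the other neighbours in this order were separate. In PRMT1 KD, PIM1 stood first (59.4 ± 2.21 FPKM) above PIM2 (52.1 ± 0.677), and IL6R was the third (38.2 ± 0.963), followed by PIM3 (31.7 ± 2.08) and JAK1 (30.3 ± 0.803), whose libraries overlapped. From IL6ST down the order was that of the control cells. The plot of FPKM by library shows these levels gene by gene.

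Among all 13585 genes tested, 279 (2.05%) passed an adjusted p of 0.05 (limma on log2(FPKM + 1), Benjamini-Hochberg), 145 of them higher in PRMT1 KD (1.07%) and 134 lower (0.986%). Among the 9 genes tested here, 2 passed, both higher. No member passed as lower by limma, where 1 (JAK1) had an unadjusted p under 0.05, as did 9.47% of all genes tested in that direction. Limma's voom on the reads called 3 of the 9 higher and 0 lower, against 3.87% and 2.95% of all genes. In either direction, 19.5% of all genes had an unadjusted p under 0.05 and 6.82% passed in voom, the shares against which the list counts below stand. The 3 libraries of each group did not overlap for 5 of the 9 genes, 3 higher and 2 lower. The same held for 25.9% of all genes tested, 13.6% higher and 12.3% lower. The median log2 fold change of the 9 genes was -0.03 and that of all genes tested 0.0095, and the median absolute change was 0.089 against 0.11. In bulk RNA of this kind, fewer cells that express a gene and less of its RNA per cell cannot be told apart.

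**Figure D2:**
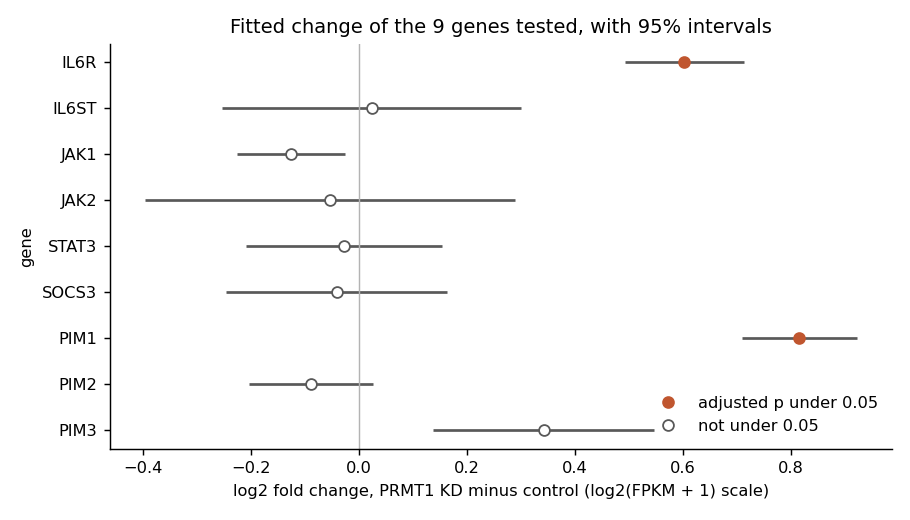
Log2 fold change of the 9 genes tested, PRMT1 KD minus control on the log2(FPKM + 1) scale (points), with 95% intervals (lines) from limma. Filled points have an adjusted p under 0.05. PIM1 (0.82) and IL6R (0.60) lie to the right of the other genes, the interval of PIM3 (0.14 to 0.55) lies above 0, and the intervals of IL6ST, JAK2, STAT3, SOCS3 and PIM2 hold 0.

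IL6R (ENSG00000160712, chr1:154405193-154469450, plus strand) encodes the chain that binds IL-6. It stood at 25.9, 24.2 and 24.3 FPKM in control 1 to 3 and at 39.2, 38.1 and 37.3 FPKM in PRMT1 KD 1 to 3. Libraries of a group lay close together, and the lowest PRMT1 KD library was well above the highest control library. IL6R rose by 0.60 on the log2(FPKM + 1) scale (95% interval 0.49 to 0.71, limma adjusted p = 0.00515), 1.54-fold on the linear scale. Among the 10107 protein-coding genes tested this was the 12th largest rise on the log2(FPKM + 1) scale, which understates rises of low genes. The values rest on 2523 to 2763 reads in control and 3537 to 4179 in PRMT1 KD, and the exact permutation test gave p = 0.1, the smallest it can give for 3 libraries against 3. IL6R-AS1, on the opposite strand within the IL6R locus, was at 1.503 to 2.43 FPKM, and whether reads were counted by strand is not given in the sources used here.

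IL6ST (ENSG00000134352, chr5:55935095-55994993, minus strand) encodes gp130, which carries the signal into the cell. Its values were 8.81, 8.86 and 11.5 FPKM in control and 9.14, 9.26 and 11.2 FPKM in PRMT1 KD. Replicate 3 was the highest in both groups, and the groups overlapped. The log2 fold change was 0.02 (95% interval -0.25 to 0.30, limma adjusted p = 0.940). The IL6ST locus overlaps a processed pseudogene on the opposite strand, AC016596.1, which was at 17.0 to 32.0 FPKM, so how reads were shared between them is uncertain.

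The ratio of the receptor chains, chosen after the values were seen and given without a test, followed IL6R. IL6R FPKM divided by IL6ST FPKM was 2.93, 2.74 and 2.12 in control (2.60 ± 0.425, SD, n = 3) and 4.29, 4.11 and 3.34 in PRMT1 KD (3.91 ± 0.507). The groups did not overlap, and replicate 3, where IL6ST was highest, had the lowest ratio in each group.

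JAK1 (ENSG00000162434, chr1:64833229-64966504, minus strand) encodes the main kinase of gp130 signalling. Its FPKM was far above that of JAK2, whose own level is uncertain because other genes overlap it. It was at 33.8, 32.6 and 33.1 FPKM in control and 30.6, 29.4 and 30.9 FPKM in PRMT1 KD. All 3 PRMT1 KD libraries lay below the control libraries by a small margin, 91.4% of control on the mean. The log2 fold change of -0.13 (95% interval -0.23 to -0.03) had an unadjusted p of 0.0212 and an adjusted p of 0.169 in limma, so JAK1 did not pass. RAVER2 lies partly across JAK1 on the opposite strand and was at 6.42 to 7.16 FPKM.

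JAK2 (ENSG00000096968, chr9:4984390-5128183, plus strand), a second JAK kinase that can work at gp130, was at 1.11, 1.17 and 1.84 FPKM in control and 1.34, 1.23 and 1.22 FPKM in PRMT1 KD. Control 3 stood apart as the highest, and the groups overlapped. With 109 to 188 reads per library, the log2 fold change was -0.05 with a wide 95% interval of -0.40 to 0.29 (limma adjusted p = 0.880). INSL6, on the opposite strand across JAK2, was at 6.16 to 8.49 FPKM, above JAK2 itself, and several pseudogenes lie within JAK2, so how reads were shared between them is uncertain.

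STAT3 (ENSG00000168610, chr17:42313324-42388568, minus strand), the transcription factor that the JAKs phosphorylate, was at 8.69, 7.95 and 7.30 FPKM in control and 8.06, 8.11 and 7.23 FPKM in PRMT1 KD. Replicate 3 was the lowest in both groups, and the groups overlapped. The log2 fold change was -0.03 (95% interval -0.21 to 0.15, limma adjusted p = 0.880). These values are of STAT3 RNA and do not measure its phosphorylation.

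SOCS3 (ENSG00000184557, chr17:78356778-78360077, minus strand), an inhibitor that binds gp130 and is itself a known target of STAT3, was at 2.81, 3.40 and 3.19 FPKM in control. In PRMT1 KD it was at 3.15, 3.12 and 2.76 FPKM. The groups overlapped, with 115 to 150 reads per library. The log2 fold change was -0.04 (95% interval -0.25 to 0.16, limma adjusted p = 0.834). SOCS1 (ENSG00000185338, chr16:11254405-11256200, minus strand), which blocks the JAKs directly, was at 0.303, 0.242 and 0.0674 FPKM in control and at 0.202, 0.0773 and 0.256 FPKM in PRMT1 KD. These values rest on 2 to 9 reads per library, so a difference was not detectable at these counts (log2 fold change without the filter -0.03, 95% interval -0.27 to 0.21, limma adjusted p = 0.935). At such levels the log2(FPKM + 1) scale compresses any change, so this interval does not bound the fold change of SOCS1. RMI2 runs across SOCS1 on the opposite strand at 8.85 to 10.4 FPKM, so how reads were shared between them, and the level of SOCS1 itself, is uncertain.

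PIM1 (ENSG00000137193, chr6:37170203-37175426, plus strand) encodes a kinase that is active as soon as it is made, so that its activity is set largely by how much of it is made. It was at 32.5, 33.7 and 33.7 FPKM in control and at 59.9, 61.3 and 57.0 FPKM in PRMT1 KD. Control libraries were nearly equal, and the groups were separated by far more than the spread within either. PIM1 rose by 0.82 on the log2(FPKM + 1) scale (95% interval 0.71 to 0.92, limma adjusted p = 0.00178), 1.78-fold on the linear scale. On the log2(FPKM + 1) scale this was the 5th largest rise among the protein-coding genes tested. By p, PIM1 was number 3 of all genes. The exact permutation test again gave its smallest p, 0.1. The values rest on 1602 to 1656 reads in control and 2584 to 2944 in PRMT1 KD, and no other gene of the table overlaps PIM1.

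PIM2 (ENSG00000102096, chrX:48913182-48919024, minus strand), the PIM kinase most tied to myeloma cells, was at 54.7, 58.7 and 53.2 FPKM in control and at 51.7, 52.9 and 51.7 FPKM in PRMT1 KD. Each PRMT1 KD library was below each control library, though by less than the spread among the control libraries. The log2 fold change was -0.09 (95% interval -0.20 to 0.02, limma adjusted p = 0.364).

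PIM3 (ENSG00000198355, chr22:49960513-49964080, plus strand), the third member of the family, was at 26.8, 25.8 and 21.8 FPKM in control and at 32.5, 33.2 and 29.3 FPKM in PRMT1 KD. Replicate 3 was the lowest in each group, and the groups did not overlap. PIM3 missed the threshold in limma, with a log2 fold change of 0.34 (95% interval 0.14 to 0.55, unadjusted p = 0.00551, adjusted p = 0.0995), and stood at 128% of control. It passed with the replicate number as a block (adjusted p = 0.0489) and with limma's voom on the reads (log2 fold change 0.35, adjusted p = 0.0172).

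Summed over PIM1, PIM2 and PIM3, PIM kinase RNA was at 114, 118 and 109 FPKM in control (113.6 ± 4.75, SD, n = 3) and at 144, 147 and 138 FPKM in PRMT1 KD (143 ± 4.78). The groups did not overlap. PIM1 made up 29.3% ± 1.41 of the sum in control and 41.5% ± 0.161 in PRMT1 KD, and PIM2 48.8% ± 0.851 and 36.4% ± 0.914. The share of PIM3 was 21.8% ± 1.73 and 22.1% ± 0.755, with overlapping groups. The 95% interval of the PIM1 change (0.71 to 0.92) lay above those of PIM2 and PIM3, but the difference between the genes was not tested. Sums and shares were chosen after the values were seen, and both contain PIM1, so its rise alone moves them. The level of PIM2 itself was 93.8% of control and did not pass.

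**Figure D3:**
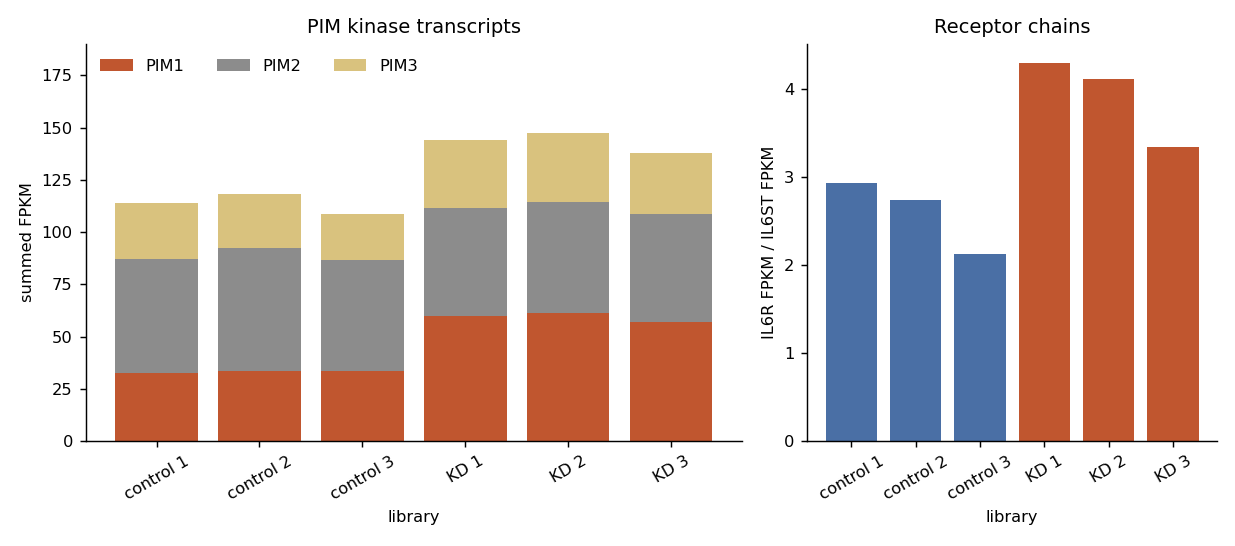
Left, FPKM of PIM1, PIM2 and PIM3 stacked for each of the 6 libraries. Right, IL6R FPKM divided by IL6ST FPKM in each library. The summed PIM level is 109 to 118 FPKM in the control libraries and 138 to 147 FPKM in the PRMT1 KD libraries, and the ratio is 2.12 to 2.93 against 3.34 to 4.29.

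The rest of the pathway was followed with 7 lists of 111 further genes, of which 83 were tested. In limma 2 passed (1 higher, 1 lower) and 81 did not, a share near the 2.05% over all genes tested. In voom 13 of the 83 passed, against 6.82% of all genes tested, so the nearness holds for the main limma count only. The ligands were scarce. Of 11 IL-6 family ligands 3 reached the filter, with a median log2 fold change of -0.14, and 0 passed in limma, 0 had an unadjusted p under 0.05 and 0 passed in voom. EBI3, a subunit of IL-27 and IL-35, was at 2.89 ± 0.387 FPKM in control and 2.46 ± 0.309 in PRMT1 KD (limma adjusted p = 0.435). CLCF1 was at 2.11 ± 0.524 and 1.82 ± 0.421 FPKM (limma adjusted p = 0.678). IL6 itself, named outside the rule because it is the ligand of IL6R, was listed at 0 in all 6 libraries.

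Among 8 other receptor genes and sheddases, 4 were tested and 0 passed in limma, with 1 at an unadjusted p under 0.05 and 1 passing in voom. This was IL27RA, which pairs with gp130, at 7.60 ± 0.355 FPKM in control and 5.93 ± 0.327 in PRMT1 KD (log2 fold change -0.31, limma adjusted p = 0.0620, voom adjusted p = 0.0343). IL11RA, the IL-11 receptor chain, was at 3.24 ± 0.219 and 2.64 ± 0.357 FPKM (limma adjusted p = 0.270). For both chains, 2 of the 4 genes tested, all PRMT1 KD libraries lay below the control libraries, as for 12.3% of all genes tested. Neither passed in limma, so a fall of these chains was not established. The PRMT1 KD libraries of IL6R lay above, as for 13.6% of all genes tested.

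Of 8 other JAK and STAT genes, 5 were tested and 0 passed in limma, with 1 at an unadjusted p under 0.05 and 1 passing in voom. STAT2, which works in interferon signalling, was at 25.6 ± 1.38 FPKM in control and 24.4 ± 0.660 in PRMT1 KD (log2 fold change -0.06, limma adjusted p = 0.557).

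Of 20 brakes on JAK-STAT signalling besides SOCS1 and SOCS3, 17 were tested and 1 (PTPN6) passed in limma. An unadjusted p under 0.05 was found for 4, all 4 lower (9.47% of all genes). In voom 2 passed, both lower (2.95% of all genes). PTPN6, the tyrosine phosphatase SHP-1, was at 5.91, 6.07 and 5.33 FPKM in control and 3.64, 3.86 and 4.39 FPKM in PRMT1 KD. It fell by 0.45 on the log2(FPKM + 1) scale (limma adjusted p = 0.0484), a call near the threshold that was lost when any 1 of the 6 libraries was left out (adjusted p 0.0683 to 0.182) and with the replicate block (adjusted p = 0.0705). PTPRC, the phosphatase CD45, was at 6.02 ± 0.562 and 4.69 ± 0.502 FPKM (limma adjusted p = 0.135, voom adjusted p = 0.0240). RNF7, a ring finger protein of cullin ubiquitin ligases, was at 12.2 ± 0.636 and 10.5 ± 0.541 FPKM (limma adjusted p = 0.137). The median log2 fold change over the list was 0.07, so these 3 genes lay on the other side of 0 from most of it.

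The RAS-MAPK and PI3K arm that also starts at gp130 had 24 genes, of which 22 were tested and 0 passed in limma, with 6 at an unadjusted p under 0.05 (4 higher, 2 lower; 19.5% of all genes in either direction) and 1 passing in voom. The catalytic PI3K subunits PIK3CA (3.39 ± 0.596 FPKM in control and 4.38 ± 0.449 in PRMT1 KD, limma adjusted p = 0.218) and PIK3CD (2.25 ± 0.0452 and 2.99 ± 0.581 FPKM, limma adjusted p = 0.225) differed most. PIK3CA was the gene that passed in voom (adjusted p = 0.0461). The 2 lower genes, named after their values were seen, were HRAS (12.9 ± 0.123 and 10.8 ± 0.805 FPKM, limma adjusted p = 0.106) and MAP2K2 (37.2 ± 2.65 and 32.1 ± 1.83 FPKM, limma adjusted p = 0.165).

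Known STAT3 targets other than the genes above numbered 22, of which 15 were tested and 1 (MYC) passed in limma. An unadjusted p under 0.05 was found for 5, with 4 higher and 1 lower (10.1% and 9.47% of all genes). In voom 4 passed, all 4 higher (3.87% of all genes). MYC, a transcription factor that drives growth, was at 223, 234 and 212 FPKM in control and 286, 284 and 267 FPKM in PRMT1 KD. It rose by 0.32 on the log2(FPKM + 1) scale (limma adjusted p = 0.0399), and this call was lost without any 1 of the 6 libraries (adjusted p 0.0683 to 0.170). BCL3, an IκB-like cofactor, was at 6.61 ± 0.421 and 8.63 ± 0.408 FPKM (limma adjusted p = 0.0531), and JUNB, an AP-1 subunit, at 46.6 ± 4.39 and 60.4 ± 5.06 FPKM (limma adjusted p = 0.0864). BCL3 and JUNB passed in voom (adjusted p = 0.0185 and 0.0102) and with a filter of 5 FPKM, and JUNB with the replicate block. Neither passed with any 1 library left out. The list was written with earlier results of these data known. Its median log2 fold change was 0.12, against 0.0095 over all genes tested, with 11 of 15 above 0. For 7 of the 15, every PRMT1 KD value exceeded every control value, against 13.6% of all genes, and for 1 every value was below, against 12.3%. The latter, named after its values were seen, was CCND1 (cyclin D1), at 112 ± 4.23 and 101.1 ± 2.19 FPKM (limma adjusted p = 0.139). MCL1, a survival gene of myeloma cells named after its values were seen, was at 121.7 ± 1.15 and 121.6 ± 3.15 FPKM (limma adjusted p = 0.990).

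Genes whose proteins PIM kinases phosphorylate numbered 18, of which 17 were tested and 0 passed in limma, with 7 at an unadjusted p under 0.05 (6 higher, 1 lower; 10.1% and 9.47% of all genes) and 4 passing in voom, all 4 higher (3.87% of all genes). The lower gene, named after its values were seen, was EIF4EBP1, a repressor of translation (log2 fold change -0.23, limma adjusted p = 0.238). The median log2 fold change of this list, also written with earlier results known, was 0.08, with 11 of 17 above 0. For 7 of the 17, every PRMT1 KD value exceeded every control value, against 13.6% of all genes. For 1 (RUNX3) every value was below, against 12.3%, so both this list and that of STAT3 targets had 7 such higher genes. MAP3K5, the stress kinase ASK1, was at 6.13 ± 0.239 FPKM in control and 7.80 ± 0.729 in PRMT1 KD (limma adjusted p = 0.0955), and RUNX3, a transcription factor, at 3.30 ± 0.562 and 2.52 ± 0.338 FPKM (limma adjusted p = 0.262). RNA levels of substrates do not measure their phosphorylation.

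**Figure D4:**
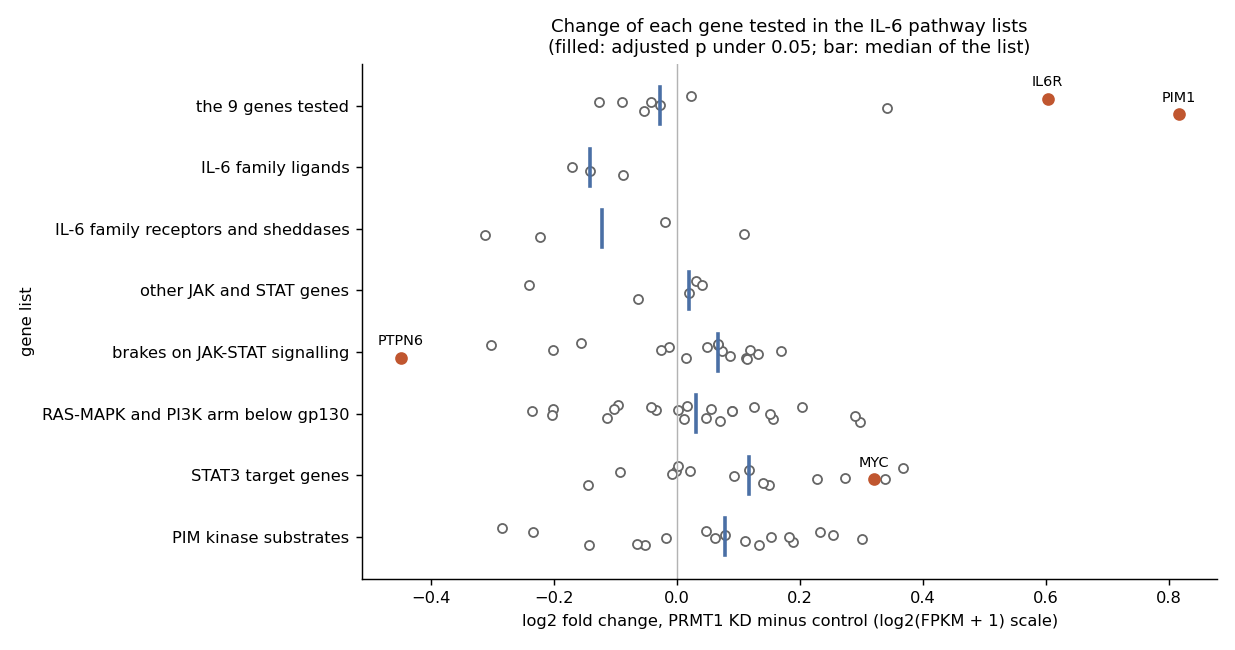
Log2 fold change, PRMT1 KD minus control on the log2(FPKM + 1) scale, of the 9 genes tested here and of the tested genes in 7 further lists (1 point per gene, jittered vertically). Bars mark each list's median and filled points an adjusted p under 0.05. IL6R and PIM1 lie beyond the points of all 7 lists, whose changes run from -0.45 (PTPN6) to 0.37 (JUNB).

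The protein-coding genes with profiles over the 6 libraries most like those of PIM1 and IL6R were found by the root mean square (RMS) difference of log2(FPKM + 1) values, each gene centred on its own mean. For PIM1 these were TPM4, a tropomyosin of the actin cytoskeleton (RMS difference 0.073), IER5L (0.087) and IL6R itself (0.12). TPM4 was at 12.4 ± 0.490 FPKM in control and 23.1 ± 1.04 in PRMT1 KD, and IER5L at 7.75 ± 0.455 and 13.0 ± 0.295 FPKM. For IL6R they were KLF2, a transcription factor of lymphocytes and endothelium (0.05), SERINC2 (0.055) and CORO1A, an actin-binding protein of leukocytes (0.059). KLF2 was at 25.8 ± 1.28 and 39.1 ± 1.55 FPKM, close to IL6R in level as well as in change. CORO1A was at 7.41 ± 0.379 and 11.2 ± 0.958 FPKM. SERINC2 was near the filter, at 1.31 ± 0.0793 and 2.43 ± 0.151 FPKM, which is 186% of control against 154% for IL6R. With a pseudocount of 0.1 its log2 fold change was 0.85 and that of IL6R 0.62, so their likeness depends on the pseudocount of 1. The 6 points of each profile share the 2 groups, so the likeness includes the difference between them, which also chose PIM1 and IL6R for this search.

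**Figure D5:**
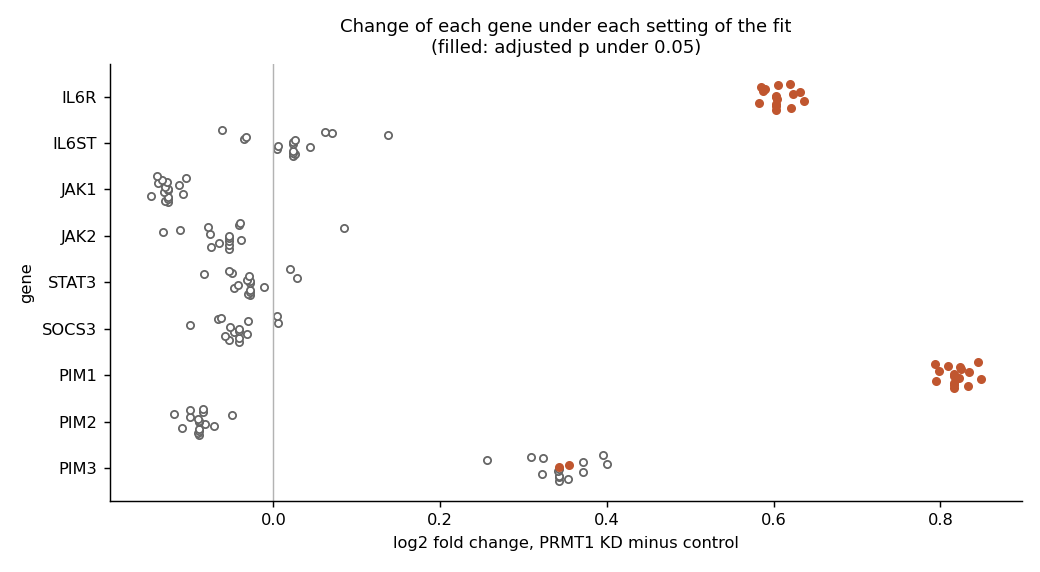
Log2 fold change of the 9 genes tested under the fit used and its alternatives (1 point per setting in which the gene was tested, spread vertically), PRMT1 KD minus control. Filled points have an adjusted p under 0.05. IL6R (0.58 to 0.64) and PIM1 (0.79 to 0.85) are filled under every setting, PIM3 (0.26 to 0.40) under 2, and IL6ST, JAK2, STAT3 and SOCS3 have points on both sides of 0.

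Across 15 alternatives, which changed the pseudocount, filter, scaling, variance model, block, data type or libraries, IL6R passed in 15 (adjusted p 7.10e-06 to 0.0448) and PIM1 passed in 15 (adjusted p 3.03e-07 to 0.0322). The plot of changes by setting shows that the directions of PIM1, IL6R, PIM3, JAK1 and PIM2 were the same under all alternatives run, while those of IL6ST, JAK2, STAT3 and SOCS3 turned when single libraries were left out.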

How the data were processed

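RNA-seq of 3 control and 3 PRMT1 KD libraries of MM.1S cells was analysed, with groups and replicate numbers from the sample labels. The file deposited by the authors holds FPKM for every gene in each library, beside gene length and position. The submitters' processing notes name featureCounts 1.5.0-p3 and hg38. The aligner and the strand setting are not given in the sources used here. FPKM multiplied by gene length gave whole reads for 100% of values above 0 (within 0.05 of a whole number), and the implied library sizes equalled median-of-ratios size factors times the geometric mean of the totals, so a scaling between libraries is already in the values.

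Values were tested as log2(FPKM + 1) in R 4.3.3 by limma 3.58.1, with moderated variances that follow a trend on mean expression, no block, two-sided p-values and Benjamini-Hochberg adjustment, over the 13585 genes with a mean of at least 1 FPKM. An adjusted p under 0.05 passed. Fold changes on this scale understate those of low genes. Single genes were compared with a two-sided exact permutation test, whose smallest p is 0.1. The fit was tested on simulated data. Alternatives were a pseudocount of 0.1, no filter or 5 FPKM, median scaling, TPM, quantile normalization, no trend, a replicate block, voom on the reads worked back, and each library left out.

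The members, gene lists and tests were chosen with earlier results of these data known. Beyond the members and PRMT1, the genes named are those of each list that passed, the 2 others with the largest absolute change, and the 3 closest profiles of each member that passed. Genes named outside this rule are so described, and a result on a single gene is not reported here. Promoter sequences are from RefSeq (GRCh38.p14), matched by symbol for all 10 members. Protein sequences were not used here. Columns of values that matched no sample numbered 0. Figures were drawn with matplotlib 3.10.9.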

Additional observations from a re-analysis of the deposited data

How the results depend on the processing

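PIM1, IL6R and PRMT1 kept their direction and passed in all 15 alternatives, with log2 fold changes of 0.79 to 0.85, 0.58 to 0.64 and -2.21 to -2.09. PIM3 kept its direction (0.26 to 0.40) and passed in 2 of 15, with the replicate block (0.34, adjusted p = 0.0489) and with voom (0.35, adjusted p = 0.0172). The number of members that passed was therefore 3 in these 2 alternatives and 2 in the other 13. JAK2 and SOCS3 were not tested with a filter of 5 FPKM, and SOCS1 was tested only with no filter. Leaving out 1 library at a time gave -0.062 to 0.14 for IL6ST, -0.13 to 0.084 for JAK2, -0.083 to 0.028 for STAT3 and -0.10 to 0.01 for SOCS3, none of which passed. Single values on the other side of 0 were -0.036 (without control 1), -0.032 (without control 2) and -0.062 (without PRMT1 KD 3) for IL6ST, 0.084 (without control 3) for JAK2, 0.028 (without control 1) and 0.02 (without PRMT1 KD 3) for STAT3, and 0.0055 (without control 2) and 0.0039 (without PRMT1 KD 3) for SOCS3.

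The count over all genes depended more on the setting. Against 279 it was 35 with no filter, 473 with a filter of 5 FPKM, 43 with no trend, 927 with voom and 13 to 95 with 1 library left out. In the further lists, 2 genes passed, against 0 with no filter, 5 with a filter of 5 FPKM, 1 with median scaling, 0 with no trend, 13 with voom and 0 in each of the fits with 1 library left out. Over all genes tested, 6.82% passed with voom and 2.05% in the fit used. PTPN6 and MYC each lost their call in 9 alternatives. Scaling moved the median change of all genes to between -0.0081 and 0.029 on the log2 scale. The cause of these shifts was not tested. Of the genes with closest profiles, TPM4 passed in every alternative, whereas IER5L, KLF2, SERINC2 and CORO1A did not in some.

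Replicate numbers are shared by the groups, but the labels name no shared culture or day. Deviations from the group means correlated by 0.020, 0.063 and 0.10 for libraries of the same number and by -0.075 to 0.019 otherwise, and each library correlated best with its own number, a hint from the data and not from the design. With the replicate block, 204 genes passed, 147 of them shared with the 279, and PIM1 and IL6R each had an adjusted p of 0.0322. Low read counts limit what can be said of SOCS1 (2 to 9 reads), SOCS3 (115 to 150) and JAK2 (109 to 188).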
